A study of Mus musculus with 21 samples.

Results

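Metallothioneins and genes of the zinc response were followed across AGRP and POMC neurons of fed and food-deprived mice. The members are *Mt1*, *Mt2*, *Mt3*, *Mtf1* and *Slc30a1*, taken by symbol as 5 of the 35266 genes in the tables. They were singled out with the change of *Mt1* and *Mt2* in AGRP neurons already known, so every AGRP comparison of the members is given as values without a test. Each of the 21 RNA-Seq libraries held the green fluorescent neurons picked by hand from the arcuate nucleus of 1 male mouse on the C57BL/6J background. AGRP neurons came from NPY-hrGFP reporter mice, 5 fed ad libitum (46 to 55 days old) and 6 kept on water alone for 24 h (FD, 47 to 55 days old). POMC neurons came from Pomc-GFP reporter mice, 5 fed (51 to 56 days old) and 5 FD (54 to 56 days old). Cells were chosen by the reporter, so each pool is the reporter-bright cells of that region and could also hold other cells that carry it. The pools held 44 to 214 cells and their RNA was amplified before sequencing.

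Metallothioneins are small, cysteine-rich proteins that bind zinc and copper in the cell. *Mt1* and *Mt2* encode the broadly expressed, inducible forms and *Mt3* a form known mainly from the brain. *Mtf1* encodes the zinc-sensing transcription factor MTF-1, which binds metal response elements in the promoters of *Mt1*, *Mt2* and *Slc30a1* when free zinc rises. *Slc30a1* encodes ZnT1, the transporter that carries zinc out across the plasma membrane. Glucocorticoids and oxidative stress are also known to induce *Mt1* and *Mt2*.

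The metallothionein genes lie beside each other on chromosome 8 of mm10, as the deposited tables give them. *Mt2* (ENSMUSG00000031762) spans 94172618 to 94173567, *Mt1* (ENSMUSG00000031765) 94179089 to 94180325 and *Mt3* (ENSMUSG00000031760) 94152607 to 94154148. *Mtf1* (ENSMUSG00000028890) lies on chromosome 4, 124802104 to 124849800, and *Slc30a1* (ENSMUSG00000037434) on chromosome 1, 191906767 to 191913247. The 250 bases before the RefSeq start of *Mt1*, *Mt2* and *Slc30a1* (GRCm38.p6, plus strand) are shown because these are the classical MTF-1 targets, and their FD to fed differences in AGRP neurons did not all have the same sign. The stretches are chr8:94178839-94179088, chr8:94172368-94172617 and chr1:191906531-191906780. Capitals mark the core of the metal response element, TGCACNC or TGCGCNC, on either strand.
Mt1: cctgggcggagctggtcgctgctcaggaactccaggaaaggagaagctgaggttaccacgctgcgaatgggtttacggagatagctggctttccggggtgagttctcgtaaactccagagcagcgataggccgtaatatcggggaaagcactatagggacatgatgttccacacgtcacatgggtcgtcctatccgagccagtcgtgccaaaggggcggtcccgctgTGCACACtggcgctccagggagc
Mt2: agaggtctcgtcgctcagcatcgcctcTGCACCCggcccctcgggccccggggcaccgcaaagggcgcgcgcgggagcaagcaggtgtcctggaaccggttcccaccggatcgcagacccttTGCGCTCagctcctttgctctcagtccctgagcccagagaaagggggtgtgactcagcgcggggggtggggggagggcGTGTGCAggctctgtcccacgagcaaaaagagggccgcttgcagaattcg
Slc30a1: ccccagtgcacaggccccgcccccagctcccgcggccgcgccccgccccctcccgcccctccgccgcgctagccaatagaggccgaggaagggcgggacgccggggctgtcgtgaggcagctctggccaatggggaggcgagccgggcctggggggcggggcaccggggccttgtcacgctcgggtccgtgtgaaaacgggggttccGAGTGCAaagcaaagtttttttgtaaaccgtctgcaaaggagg
In the whole window from 250 bases before to 50 after the start, all 5 members matched to RefSeq. The core occurred 4 times for *Mt2*, 3 times for *Mt1*, 2 times for *Slc30a1*, 1 time for *Mt3* and 0 times for *Mtf1*. Before the RefSeq start itself it occurred 3 times for *Mt2* and 1 time each for *Mt1* and *Slc30a1*, which are the capitals above. The other 2 cores of *Mt1* lay 3 and 21 bases after that start. These counts hold for the RefSeq starts alone, and bases further than 50 after them were not searched, so they do not rank the whole promoters. Of 32851 windows of this length over all genes, 25.7% held at least 1 core, 7.11% at least 2, 1.97% at least 3 and 0.517% at least 4. The core of the antioxidant response element, TGACNNNGC or TGAGNNNGC on either strand, occurred 1 time for *Mt2* (TGACTCAGC, 79 bases before the start) 2 times for *Slc30a1*, 1 time each for *Mt3* and *Mtf1*, and 0 times for *Mt1*. At least 1 such core lay in 27.8% of all windows. The full palindromic glucocorticoid response element lay in none of the 5 windows and in 0.00913% of all windows. A match describes the letters of the window and does not show a site in use.

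Libraries held 9822298 to 37663979 gene counts (median 19189780), so a floor of 3 counts lay at 0.0797 to 0.305 CPM (counts scaled to the library total), covering counting error only. Levels are the deposited TPM, which are scaled per length and to the same total in each library, and fold changes with their standard errors (SE) come from one edgeR quasi-likelihood fit to the counts of the 16513 genes with CPM above 1 in at least 3 libraries. All 5 members passed that filter. Two-sided p-values were adjusted over these genes by Benjamini-Hochberg to give q, and a gene was called at q under 0.05. By their defining peptides the sorted cells matched their labels: *Agrp* averaged 3455 TPM in fed and 12050 TPM in FD AGRP neurons against 15.5 and 46.0 TPM in POMC neurons, and *Pomc* 16029 and 10743 TPM in fed and FD POMC neurons against 43.5 and 32.7 TPM in AGRP neurons. The other AGRP markers (*Npy*, *Ghsr*, *Corin*, *Otp*) were also higher in AGRP neurons, and *Cartpt* and *Prdm12* in POMC neurons. Of the POMC markers *Nr5a2* went the other way, at 98.3 and 101 TPM in fed and FD AGRP against 28.7 and 27.8 TPM in POMC neurons. *Tbx19* averaged at most 0.283 TPM in any group. In pooled cells, more RNA per cell and more cells that hold the RNA cannot be told apart.

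*Mt2* had the largest FD to fed difference of the members in AGRP neurons. The 5 fed libraries held 11.8, 6.80, 3.13, 5.17 and 1.68 TPM. The 6 FD libraries ran from 42.2 TPM through a median of 464 TPM to 645 TPM, and the groups did not overlap. Mean *Mt2* was 5.71 ± 3.92 TPM (SD, n = 5) in fed and 405 ± 242 TPM (SD, n = 6) in FD mice, rank 12325 and rank 343 of all genes by mean TPM. On the count scale the log2 fold change was 6.45 (SE 0.75), an 87.2-fold difference and the 31st highest of the 16513. Replicate FD 1 gave the 42.2 TPM and FD 6 the next lowest value, 199 TPM, while the other four FD libraries held 397 to 645 TPM. In POMC neurons *Mt2* stood between these extremes, with 9.07, 69.1, 26.4, 35.3 and 7.15 TPM in fed and 62.3, 23.3, 65.9, 16.8 and 65.7 TPM in FD mice. Every FD POMC value lay within the fed range, and the log2 fold change was 0.53 (SE 0.60, q = 0.804 by edgeR's quasi-likelihood test, 95% interval −0.70 to 1.75). Counting ignored strand, and the antisense gene *Gm45774* overlaps 432 of the 588 exonic bases of *Mt2*. That gene was not counted by itself, so its reads there cannot be told apart from those of *Mt2*.

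*Mt1*, like *Mt2*, was higher in every FD than in every fed AGRP library, and its lowest levels were also those of fed AGRP neurons. Fed AGRP libraries held 3.74, 3.67, 6.44, 0 and 5.17 TPM, which are 12, 11, 16, 0 and 15 counts. FD AGRP libraries ran from 16.9 TPM through a median of 87.9 TPM to 129 TPM, again without overlap. The mean was 3.80 ± 2.41 TPM (SD, n = 5) in fed and 75.7 ± 43.2 TPM (SD, n = 6) in FD mice, with a log2 fold change of 4.62 (SE 0.81), 24.5-fold and the 85th highest of the 16513. *Mt1* and *Mt2* are thus 2 of the 5 members whose FD and fed AGRP libraries did not overlap, where 7.97% of all genes tested did not (2.29% with FD higher). That share is background only, because this contrast brought the members to attention. Fed POMC libraries held more *Mt1* than any fed AGRP library, at 108, 191, 72.0, 15.1 and 39.7 TPM. FD POMC libraries held 16.0, 35.4, 29.6, 47.5 and 68.1 TPM, each within the fed range. The log2 fold change in POMC neurons was −1.32 (SE 0.70, q = 0.467 by edgeR, 95% interval −2.76 to 0.12). It stood at −0.73 without POMC fed replicate 2 and at −0.01 among the libraries of mice 54 days and older (5 FD, 3 fed).

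**Figure D1:**
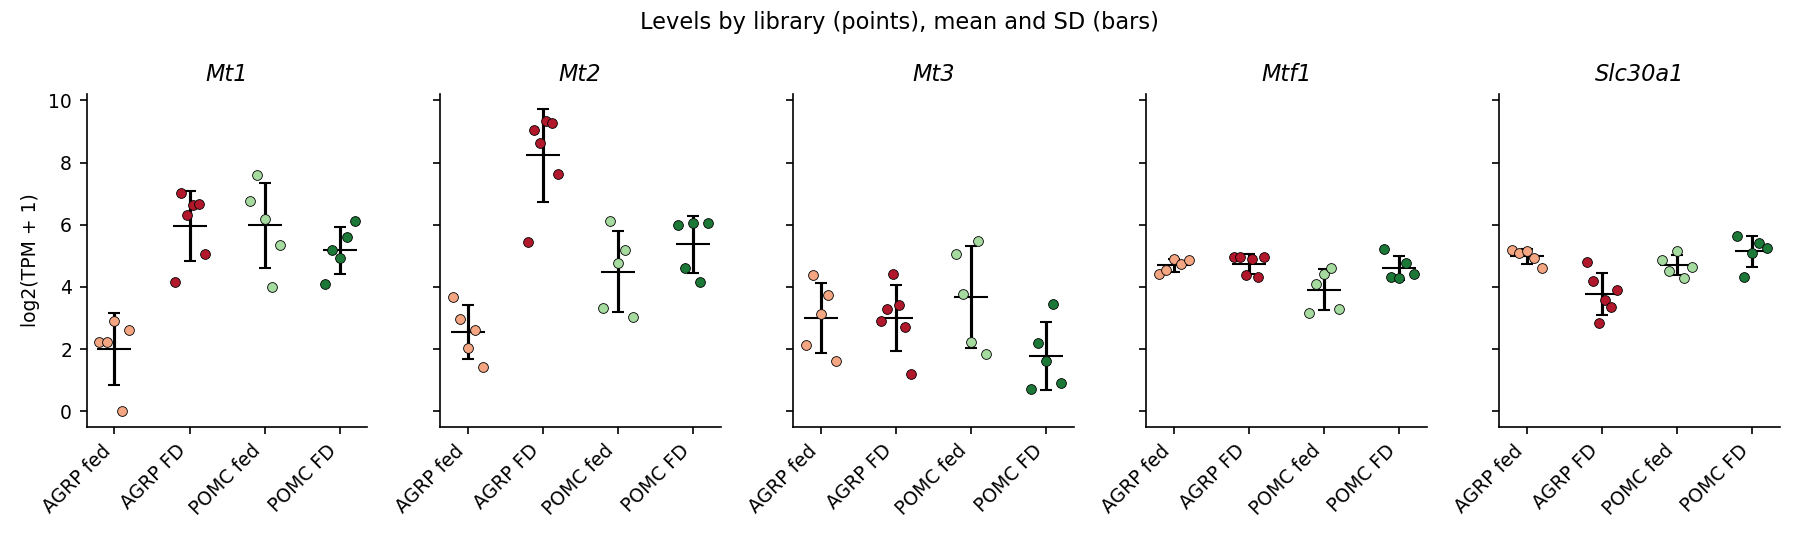
Level of each member as log2(TPM + 1) in every library, with 4 groups per panel (AGRP fed n = 5, AGRP FD n = 6, POMC fed n = 5, POMC FD n = 5), points for libraries and bars for the mean and SD on that scale. The FD AGRP libraries lie above all fed AGRP libraries for *Mt1* and *Mt2*, and 5 of 6 lie below them for *Slc30a1*.

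The balance of the inducible forms differed between groups. The tables divide *Mt1* and *Mt2* by nearly the same length (ratio 1.03), so their TPM ratio is close to their count ratio. *Mt2* exceeded *Mt1* in 6 of 6 FD AGRP libraries, with ratios from 2.50 to 6.60 (median 5.63). In fed POMC libraries it did so in 1 of 5, with ratios from 0.0836 to 2.34 (median 0.361), so *Mt1* was the predominant form there. FD POMC libraries were mixed, with *Mt2* higher in 2 of 5 and ratios from 0.353 to 3.90 (median 0.965). Fed AGRP libraries had *Mt2* higher in 3 of 5, and the 4 with any *Mt1* count gave ratios from 0.324 to 3.16 on counts of 16 or fewer for *Mt1*. Thus FD AGRP and fed POMC neurons held similar *Mt1* (75.7 and 85.3 TPM) and very different *Mt2* (405 and 29.4 TPM).

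**Figure D2:**
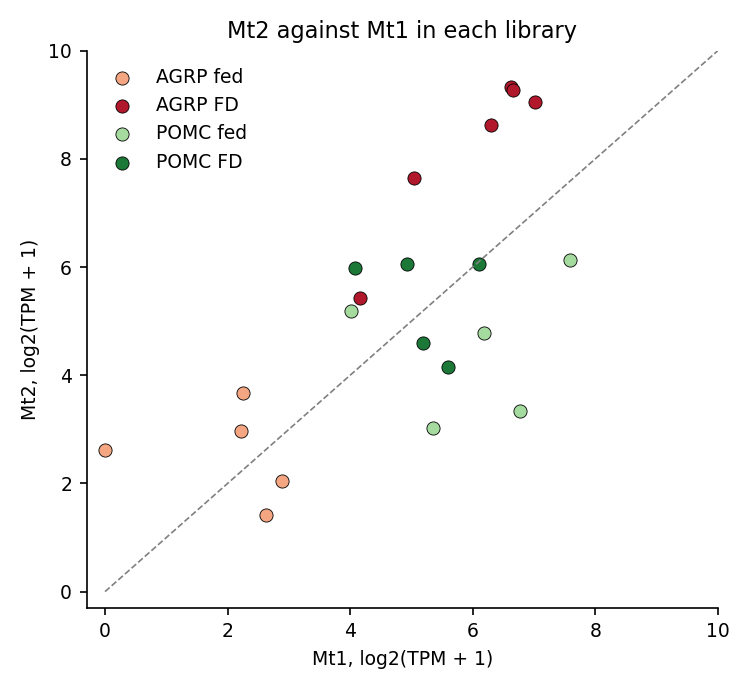
*Mt2* against *Mt1* in each of the 21 libraries, both axes log2(TPM + 1), with colours for the 4 groups and a dashed line at equal levels. All 6 FD AGRP libraries lie above the line and 4 of 5 fed POMC libraries below it.

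*Mt3* was low and variable in all groups, on 2 to 136 counts per library. Fed AGRP libraries held 3.44, 19.7, 7.67, 12.3 and 2.08 TPM, and FD AGRP libraries 1.31 to 20.4 TPM with a median of 7.63 TPM. Its mean of 9.04 ± 7.18 TPM (SD, n = 5) in fed and 8.73 ± 6.44 TPM (SD, n = 6) in FD AGRP neurons differed by less than the spread, with a log2 fold change of 0.19 (SE 1.00). No difference like that of *Mt1* and *Mt2* was seen for this form, within a wide error. In POMC neurons *Mt3* held 32.2, 12.7, 3.65, 43.9 and 2.57 TPM in fed and 0.654, 3.61, 2.10, 9.90 and 0.900 TPM in FD mice. Of the 5 FD libraries 3 lay below all fed ones and 2 within their range. The log2 fold change was −2.65 (SE 1.11, 95% interval −4.92 to −0.38) with q = 0.304 by edgeR and an unadjusted edgeR p of 0.0237, so it did not pass over all genes. *Mt4*, the keratinocyte metallothionein beside them, was at 0 in all 21 libraries.

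*Mtf1*, the zinc sensor, had FD levels on both sides of the fed range in AGRP neurons. Fed libraries held 20.5, 22.4, 28.6, 25.8 and 28.4 TPM, and FD libraries 18.8 to 30.5 TPM with a median of 29.4 TPM. Of the 6 FD libraries 4 lay above every fed one and 2 below every fed one. The means of 25.1 ± 3.62 TPM (SD, n = 5) and 26.3 ± 5.50 TPM (SD, n = 6) differed by less than the spread, and the log2 fold change was 0.32 (SE 0.26). POMC libraries held 7.98, 16.2, 20.2, 23.6 and 8.69 TPM in fed and 36.1, 19.0, 18.6, 26.3 and 20.5 TPM in FD mice. Here 2 FD libraries exceeded all fed ones and 3 lay within their range. The log2 fold change was 0.55 (SE 0.27, q = 0.413 by edgeR, 95% interval −0.0018 to 1.11). Counting ignored strand and *Mtf1* overlaps the antisense gene *1110065P20Rik* over 316 exonic bases, so reads there are uncertain.

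*Slc30a1*, the zinc exporter that shares the metal response element with the metallothioneins, was lower in FD than in fed AGRP neurons. The 5 fed libraries held 35.4, 32.9, 34.5, 29.7 and 23.2 TPM. The FD libraries ran from 6.14 TPM through a median of 12.4 TPM to 26.7 TPM, and 5 of 6 lay below every fed library. The exception was replicate FD 1, at 26.7 TPM, which was also the FD library with the least *Mt1* and *Mt2*. The mean was 31.2 ± 4.95 TPM (SD, n = 5) in fed and 14.1 ± 7.28 TPM (SD, n = 6) in FD mice, with a log2 fold change of −0.92 (SE 0.29). Without FD 1 this was −1.13, and over all libraries left out in turn it ran from −1.13 to −0.76. POMC libraries held 28.0, 21.7, 34.3, 18.8 and 24.2 TPM in fed and 48.6, 19.0, 33.4, 41.5 and 37.4 TPM in FD mice, with 3 FD libraries above every fed one. The POMC log2 fold change was 0.38 (SE 0.30, q = 0.675 by edgeR, 95% interval −0.24 to 1.00). An antisense gene, *1700034H15Rik*, overlaps 468 exonic bases of *Slc30a1*, and unstranded reads there cannot be told apart.

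**Figure D3:**
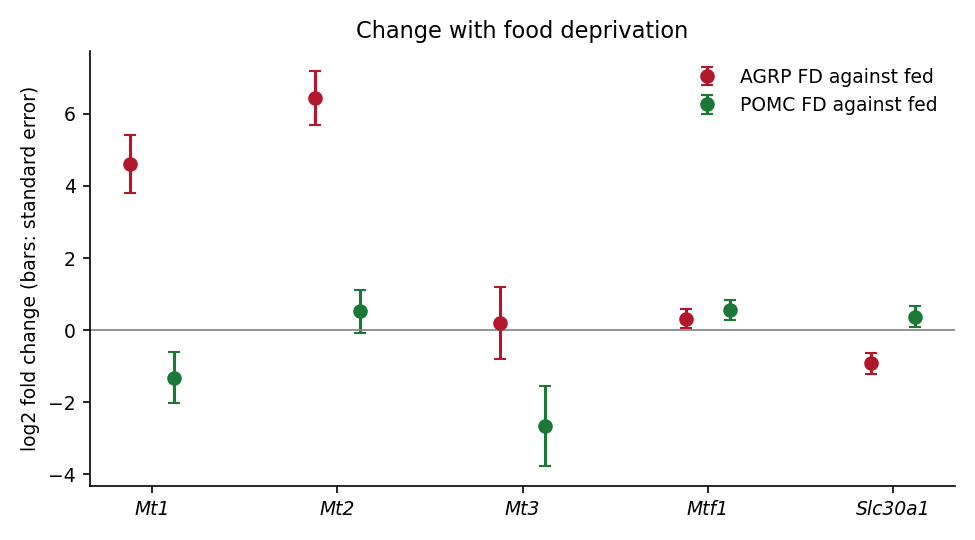
Log2 fold change of each member, FD against fed, in AGRP (6 against 5 libraries) and POMC neurons (5 against 5), with bars for the standard error. In AGRP neurons *Mt1* (4.62) and *Mt2* (6.45) lie far above 0 and *Slc30a1* (−0.92) below it, while in POMC neurons *Mt1* (−1.32) and *Mt3* (−2.65) have the lowest values.

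In POMC neurons 0 of the 5 members were called between FD and fed mice, where 0.375% of all genes were (0.182% higher, 0.194% lower in FD). By unadjusted p under 0.05 the edgeR fit gave 1 member (*Mt3*), limma-voom 1 and DESeq2 2, and both of these also called 0 after adjustment. The intervals above are wide, so a rise of up to 1.75 log2 units lies within that of *Mt2*. None of the members had FD and fed POMC libraries that did not overlap, against 2.39% of all genes (1.54% with FD higher). This contrast compares no AGRP library, though its count filter, scaling and spread come from the fit of all 4 groups. With the POMC libraries fitted alone 0 of the 5 were called as well.

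Within each group the order of the levels differed, as read in TPM. Fed AGRP neurons had *Slc30a1* at 31.2 TPM and *Mtf1* at 25.1 TPM on top, with overlapping SD ranges, followed well below by *Mt3*, *Mt2* and *Mt1*, whose SD ranges overlapped. FD AGRP neurons had *Mt2* at 405 TPM, then *Mt1* at 75.7 TPM and *Mtf1* at 26.3 TPM, with SD ranges apart from each other. Below them *Slc30a1* stood at 14.1 TPM and *Mt3* at 8.73 TPM, and the SD range of *Slc30a1* overlapped those of both *Mtf1* and *Mt3*. Fed POMC neurons ran from *Mt1* at 85.3 ± 68.8 TPM (SD, n = 5) through *Mt2*, *Slc30a1* and *Mt3* to *Mtf1* at 15.3 ± 6.91 TPM (SD, n = 5), and no neighbours in that order were apart by more than the SDs. FD POMC neurons ran from *Mt2* at 46.8 ± 24.6 TPM (SD, n = 5) through *Mt1*, *Slc30a1* and *Mtf1* with overlapping SD ranges, and *Mt3* at 3.43 ± 3.80 TPM (SD, n = 5) lay below them.

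Between the cell types the largest difference of a member was that of *Mt1* in fed mice, while *Mt2* differed more in FD mice. For fed mice the log2 fold change, AGRP against POMC, was −4.74 (SE 0.82) for *Mt1* and −2.57 (SE 0.66) for *Mt2*. *Mt1* was the 1 member of 5 whose fed AGRP and fed POMC libraries did not overlap, against 9.05% of all genes (5.92% with AGRP higher). In FD mice the same difference was 1.19 (SE 0.68) for *Mt1* and 3.35 (SE 0.64) for *Mt2*, and *Slc30a1* stood at −1.19 (SE 0.29). None of the 5 was without overlap in FD mice, against 11.8% of all genes (4.46% with AGRP higher). The change in AGRP less the change in POMC neurons was 5.94 log2 units (SE 1.05) for *Mt1*, 5.92 (SE 0.91) for *Mt2*, 2.84 (SE 1.48) for *Mt3*, −0.23 (SE 0.37) for *Mtf1* and −1.30 for *Slc30a1*. These comparisons share the AGRP libraries that drew attention to the members and are descriptions.

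The other genes of zinc transport were read from lists of 26 genes (9 zinc exporters of the ZnT family, 14 zinc importers of the ZIP family, and *Mt4*, *Tmem163* and *Gpr39*), of which 19 passed the count filter. In AGRP neurons 2 of the 19 were higher and 1 was lower in FD mice by edgeR's q, where 10.3% of all genes were called (5.87% higher, 4.43% lower), a share near that of the list. Their median log2 fold change was 0.015, against −0.023 over all genes tested. *Slc30a4*, which loads zinc into vesicles, rose from 32.7 ± 8.41 TPM (SD, n = 5) to 68.2 ± 10.5 TPM (SD, n = 6), with all 6 FD libraries (50.1 to 78.9 TPM) above all 5 fed ones (24.4 to 45.3 TPM). Its log2 fold change was 1.31 (SE 0.21, edgeR q = 8.20e-05), and the AGRP change exceeded the POMC change by 1.13 (SE 0.30, edgeR q = 0.0187). *Slc39a14*, a ZIP importer that also carries iron and is induced in inflammation, rose from 11.8 ± 5.14 TPM (SD, n = 5) to 30.5 ± 8.68 TPM (SD, n = 6), again without overlap. Its log2 fold change was 1.59 (SE 0.34, edgeR q = 0.0020), and the difference from POMC neurons was 2.05 (SE 0.48, edgeR q = 0.0079). With ERCC scaling, which lowers the median of all genes in AGRP neurons by 0.93 log2 units, *Slc30a4* stood at 0.39 (q = 0.785) and *Slc39a14* at 0.78 (q = 0.648), and neither was called. That scaling called 12 genes higher and 54 lower of all 16513. Relative to its median *Slc30a4* stood at 1.32 and *Slc39a14* at 1.71. The gene called lower was *Slc39a12*, a ZIP importer, with 1, 1, 0, 4 and 8 counts in fed and 0 counts in all 6 FD AGRP libraries (edgeR q = 0.0472). These levels lie about the floor of 3 counts, so no fold is given, and the call was lost in 26 of the 30 alternative fits that tested it.

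POMC neurons had 0 of the 19 zinc transport genes called, by edgeR, limma-voom and DESeq2 alike, against 0.375% of all genes, and 2 had an unadjusted edgeR p under 0.05. Their median log2 fold change was −0.33, against −0.024 over all genes. The most abundant zinc transport genes were *Slc39a6*, at 241 to 301 TPM over the group means, and *Slc30a9*, at 104 to 141 TPM, chosen here for their level. Neither was called in either cell type. Of the lists 7 genes fell short of the filter, among them the synaptic vesicle transporter *Slc30a3*, whose group means were at most 0.286 TPM.

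**Figure D4:**
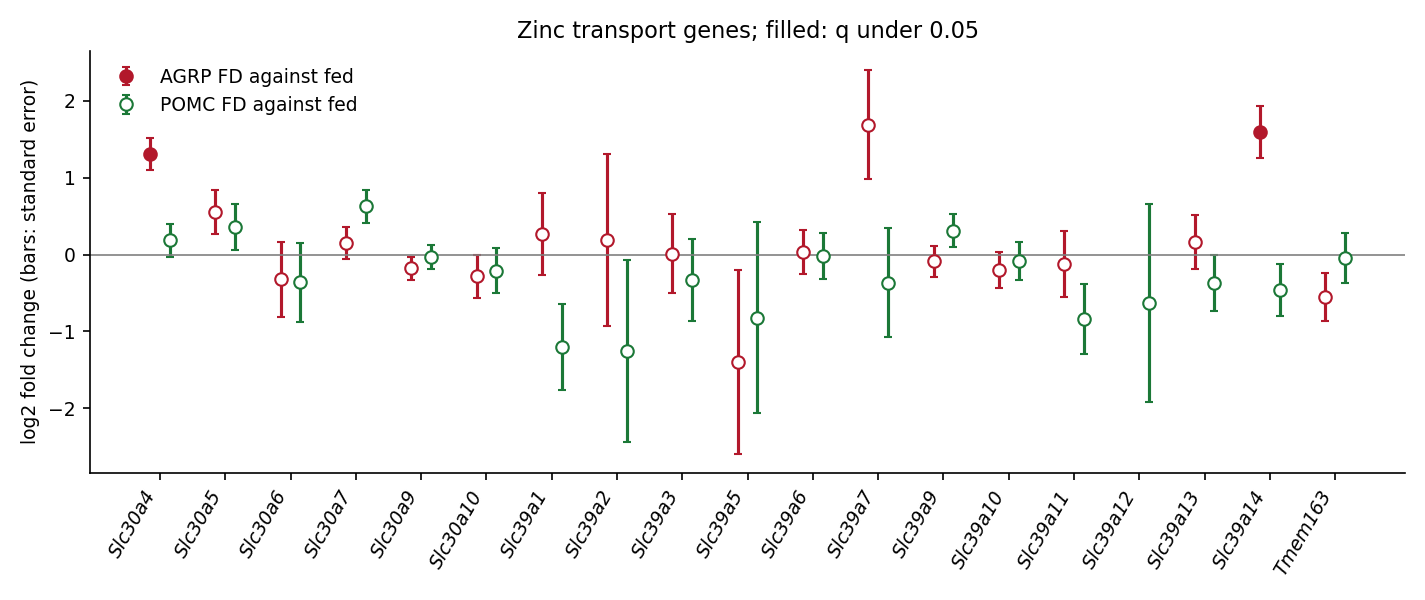
Log2 fold change with standard error of the 19 zinc transport genes tested, FD against fed, in AGRP and POMC neurons, filled where q was under 0.05. *Slc30a4* (1.31) and *Slc39a14* (1.59) are the filled points, both in AGRP neurons, and *Slc39a12* in AGRP neurons is left out because its counts lay about the floor.

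Other metal and stress lists were read beside the members. Of 9 copper handling genes tested 0 were called in AGRP neurons (0 by unadjusted edgeR p, and 0 called by limma-voom and DESeq2), where 10.3% of all genes were. Of 11 iron handling genes 1 rose, *Tfrc*, the transferrin receptor that brings iron into the cell, from 81.4 ± 20.4 TPM (SD, n = 5) to 125 ± 18.5 TPM (SD, n = 6), with a log2 fold change of 0.88 (SE 0.24, edgeR q = 0.0143), and 1 of 11 is near the 10.3% of all genes. Without AGRP fed replicate 5 its q was 0.0501. Of 11 targets of NRF2, the transcription factor of the antioxidant response, 3 rose in AGRP neurons and 0 were called in POMC neurons by edgeR (3 had an unadjusted p under 0.05, and DESeq2 called 1 lower), against 10.3% and 0.375% of all genes called by edgeR. *Srxn1*, which repairs oxidised peroxiredoxins, rose from 49.3 ± 9.09 TPM (SD, n = 5) to 770 ± 381 TPM (SD, n = 6), a log2 fold change of 4.27 (SE 0.37, edgeR q = 3.58e-09). Its 2 lowest FD libraries were FD 1 and FD 6, at 184 and 471 TPM, the same 2 as for *Mt2*. *Gclc* and *Gclm*, the subunits of the enzyme that limits glutathione synthesis, had log2 fold changes of 1.28 (SE 0.24, edgeR q = 0.00058) and 0.83 (SE 0.19, edgeR q = 0.0030). The study named these 3 genes from the same libraries, so their count is not independent evidence of direction. The interaction of cell type and FD had an edgeR q under 0.05 for 4 of the 11, against 1108 of all 16513 genes.

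Of 10 glucocorticoid-responsive genes, 7 rose and 1 was lower in AGRP neurons, and 1 rose in POMC neurons, against 10.3% and 0.375% of all genes called. The list was chosen with earlier results of these data known, so its count is not independent evidence and the shares are background only. *Errfi1*, a feedback inhibitor of EGF receptors, had a log2 fold change of 2.41 (SE 0.30, edgeR q = 2.00e-06) in AGRP and −0.08 (SE 0.29) in POMC neurons. *Sgk1*, a kinase induced by corticosteroids, had 2.51 (SE 0.42, edgeR q = 0.00013) and 0.37 (SE 0.41). *Fkbp5*, a co-chaperone of the glucocorticoid receptor, had 2.24 (SE 0.35, edgeR q = 5.54e-05) and 1.47 (SE 0.35, edgeR q = 0.0504), and the latter was called in 10 of 31 alternatives. *Zbtb16*, a zinc finger transcription factor, rose in both cell types, by 1.87 (SE 0.35, edgeR q = 0.00061) and 2.63 (SE 0.38, edgeR q = 0.00022). These genes were named for their low q and all rose in AGRP neurons, so they do not show the list's range. Over the 10 genes the AGRP log2 fold changes ran from −1.96 to 2.51. With ERCC scaling 0 genes of the iron, NRF2 and glucocorticoid lists were called in either cell type. Of all 16513 genes that scaling called 12 higher and 54 lower in AGRP neurons, and 0 and 1 in POMC neurons. Relative to its median of all genes, the AGRP values were 4.05 for *Srxn1*, 1.24 for *Gclc*, 0.93 for *Gclm* and 1.01 for *Tfrc*. Those of *Errfi1*, *Sgk1*, *Fkbp5* and *Zbtb16* were 1.93, 2.29, 1.58 and 0.97.

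The genes most like each member were ranked by Pearson's r of log2 normalized CPM over all 21 libraries, among genes with a mean above 20 CPM in at least 1 group. The libraries share group and amplification, so r describes these libraries and carries no test. *Mt2* lay closest to *Rbbp7* (r = 0.925), *Pex5l* (0.895), *Btg3* (0.879), *Ogfrl1* (0.865) and *Srxn1* (0.858), and by rank correlation 3 of its top 5 were the same genes. *Mt1* lay closest to *Atp1b3* (r = 0.869), *Hcrtr2* (0.852), *Nrip3* (0.845), *Layn* (0.843) and *Hspb8* (0.838), of which 1 was in its top 5 by rank correlation. *Slc30a1* had *Krt222* (r = 0.871), *Ppm1k* (0.857) and *Hlf* (0.848), *Mt3* had *Coro7* (0.786), *Marcksl1* (0.781) and *Sap130* (0.762), and *Mtf1* had *Rnps1* (0.755), *Dennd4c* (0.753) and *Ppp1r7* (0.751). *Mt1* and *Mt2* correlated with r = 0.681, *Mt2* and *Slc30a1* with r = −0.585, and *Mt1* and *Mt3* with r = 0.118.

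Metallothioneins are also made by astrocytes, so the markers of the other cells were summed beside the members. The sum of 12 astrocyte markers was 44.5 to 104 TPM in FD and 108 to 179 TPM in fed AGRP libraries, lower in every FD library while *Mt1* and *Mt2* were higher. *Aldoc* carried much of that sum, with a mean of 87.4 TPM in fed and 37.2 TPM in FD AGRP neurons, and without it, a split made after its values were seen, the sums overlapped, at 26.3 to 69.4 TPM in fed and 19.1 to 59.2 TPM in FD libraries. Of these markers *Aldoc*, also expressed in other cells, fell (log2 fold change −0.97, SE 0.24, edgeR q = 0.0082) and *Aldh1l1* rose (edgeR q = 0.0284) from 0.0258 to 1.69 TPM. *Gfap*, *Aqp4* and *Gja1* averaged 1.64 TPM or less in all 4 groups. In POMC libraries the sum was 123 to 180 TPM in fed and 118 to 159 TPM in FD mice. Within FD AGRP libraries the highest sums, 104 and 96.0 TPM, belonged to FD 1 and FD 6, the libraries with the least *Mt2*.

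The 10 microglia and macrophage markers summed to 51.9 to 251 TPM in FD and 1.26 to 21.9 TPM in fed AGRP libraries, a difference carried by *Lyve1*, a hyaluronan receptor, whose mean went from 1.16 to 127 TPM. Without *Lyve1* the sums were 0 to 4.42 TPM in FD and 1.06 to 20.1 TPM in fed libraries. The 10 tanycyte and ependymal markers, of which 6 were tested and 0 called in either cell type by edgeR, summed to 42.0 to 92.2 TPM in fed and 55.7 to 124 TPM in FD AGRP libraries. In POMC libraries that sum was 82.9 to 137 TPM in fed and 22.2 to 84.5 TPM in FD mice. Most of it came from *Vim*, the gene of vimentin, whose mean was 48.9 and 62.1 TPM in fed and FD AGRP neurons and 75.9 and 35.4 TPM in fed and FD POMC neurons. The 8 oligodendrocyte markers summed to 33.1 to 57.9 TPM in fed and 27.7 to 40.6 TPM in FD AGRP libraries, and the 8 mural and leptomeningeal markers to 4.49 to 11.9 and 4.67 to 18.5 TPM. The 8 endothelial markers summed to 1.01 to 10.2 and 3.01 to 12.4 TPM in FD and fed AGRP libraries. The part of other cells in the metallothionein result was not tested.

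**Figure D5:**
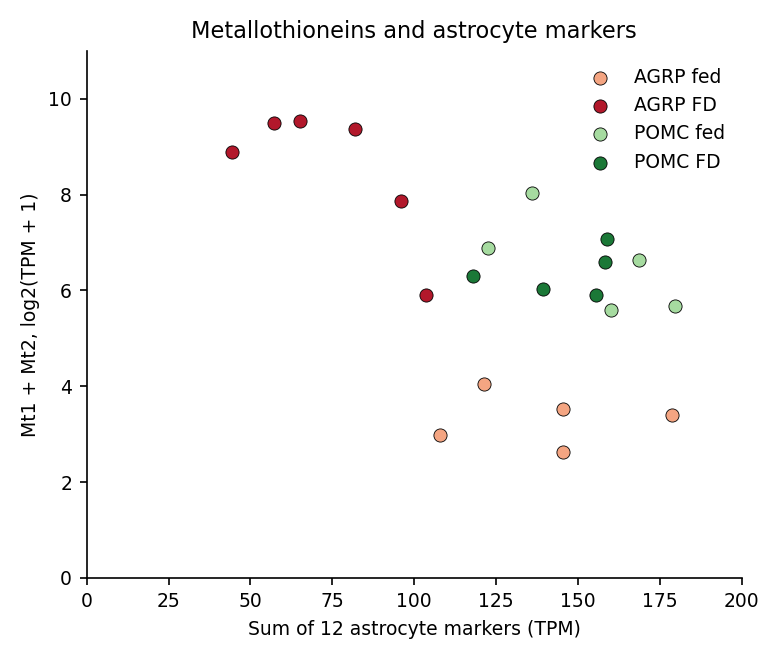
Sum of *Mt1* and *Mt2* as log2(TPM + 1) against the sum of 12 astrocyte markers in TPM, in each of the 21 libraries, with colours for the 4 groups. The 6 FD AGRP libraries have astrocyte sums of 44.5 to 104 TPM, below every other library, and 4 of them hold the highest metallothionein levels.

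The labels give different ages and spike-in volumes among the libraries, and the members were compared within them as mean differences of log2 normalized CPM, FD less fed. For *Mt2* in AGRP neurons the difference was 6.04 in mice under 50 days (3 FD, 2 fed) and 5.75 in mice of 54 days and over (3 FD, 2 fed). *Mt1* differed by 5.04 and 4.24 in these 2 cohorts and *Slc30a1* by −0.67 and −1.33. For libraries with 10 µl of spike-in (2 FD, 2 fed) the differences were 6.36, 3.63 and −1.17, in the same order. Age and spike-in set coincided in part, since the under-50-day AGRP libraries are the set dosed by cell number. In POMC neurons the set with 1 µl (3 FD, 3 fed) gave −0.46 for *Mt1*, 1.23 for *Mt2* and −1.79 for *Mt3*. The other POMC libraries had no counterpart in their set, since 2 fed ones (51 days) were dosed by cell number and 2 FD ones had 10 µl. In them feeding and spike-in set cannot be told apart. Those 2 fed libraries held the most *Mt1* of the POMC libraries, at 108 and 191 TPM.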

How the data were processed

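RNA-Seq was made from AGRP and POMC neurons of fed and FD mice, 21 libraries in 4 groups taken from the sample labels, each from a separate mouse. The authors trimmed reads with cutadapt 1.7.1, removed abundant sequences with Bowtie2 2.1.0, mapped to mm10 with STAR 2.4.0i and made the deposited counts with HTSeq 0.6.1p1, without strand, on 35266 genes. The authors derived the deposited TPM from these counts by exon length. The 92 spike-in and 5 summary entries were kept apart, and reads on no single gene were 25.5% to 53.0% of those counted.

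Counts were fitted with R 4.3.3 and edgeR 4.0.16 (CPM above 1 in at least 3 libraries, TMM, quasi-likelihood test, 4 groups, two-sided, Benjamini-Hochberg over 16513 genes). Figures used Python 3.11.15 and matplotlib 3.10.9. On simulated data for the AGRP comparison over 16513 genes the fit recovered 150 of 200 changed genes and called 4 unchanged ones. The changed genes were drawn from those above a mean CPM that *Mt3* did not reach, and changes were 1 log2 unit or more. That rate therefore does not describe *Mt3* or smaller changes. Alternatives were limma-voom (limma 3.58.1), DESeq2 1.42.0, RLE normalization, no count filter, ERCC scaling, 2 groups alone, blocks for replicate number, age cohort and spike-in set, cell number as a covariate, 2 TPM pseudocounts (1 and 0.1), and each library left out. ERCC scaling set each library size from spike-in counts divided by the labelled volume. Intervals are the log2 fold change ± 2.04 SE, by the t distribution with the 29.6 degrees of freedom of the fit.

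The members and all gene lists were chosen with earlier results of these data known. Named genes were the members, zinc-list genes with q under 0.05, at most the 4 lowest-q called genes of each other list, the 5 or 3 genes most like each member, and markers that moved with them. RefSeq promoters matched all 5 members, and protein sequences were not used here. The longest exact stretch shared by *Mt1* and *Mt2* transcripts was 20 bases and by *Mt1* and *Mt3* 27 bases. *Mt2* overlaps antisense *Gm45774*, which was not counted by itself, over 432 of its 588 exonic bases.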

Additional observations from a re-analysis of the deposited data

Results flagged for a closer look

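Several genes changed differently in AGRP and POMC neurons by the interaction test of edgeR, which called 1108 of all 16513 genes. Of the lists it called 2 of 19 zinc transport genes, 4 of 11 NRF2 targets and 2 of 10 glucocorticoid-responsive genes. For copper it called 0 of 9 and for iron 0 of 11. The change with FD in AGRP neurons exceeded that in POMC neurons by 1.13 log2 units for *Slc30a4*, 2.05 for *Slc39a14*, 4.93 for *Srxn1*, 1.53 for *Gclc*, 0.86 for *Gclm*, 2.49 for *Errfi1* and 2.14 for *Sgk1*. That of *Gclm* had q = 0.0463 by edgeR and lost its call in 22 of 30 alternatives, and that of *Sgk1* fell to 1.42 (edgeR q = 0.0772) without POMC fed replicate 1. With ERCC scaling the calls of *Slc30a4* (1.50), *Slc39a14* (2.21), *Gclc* (1.67), *Gclm* (1.27), *Errfi1* (2.62) and *Sgk1* (2.54) were lost, and that of *Srxn1* was kept (5.38, edgeR q = 0.0213). For the interaction that scaling called 34 genes above 0 and 20 below 0 of all 16513. For *Mt1* the difference was 5.94, with all 6 FD AGRP libraries above the fed AGRP mean and all 5 FD POMC libraries below the fed POMC mean, and this difference was not tested.

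Of 63 gene and group pairs looked at, 3 had a library far from the others, where chance gives about 1 in 20, and none was of a member. *Slc39a12* stood at 7.96 TPM in POMC fed replicate 5, with the nearest library at 2.17 TPM. *Sgk1* stood at 25.9 TPM in POMC fed replicate 1 (nearest 9.20 TPM), and *Zbtb16* at 63.7 TPM in AGRP fed replicate 5 (nearest 15.7 TPM).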

How the results depend on the processing

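For *Mt1* and *Mt2* the AGRP difference was positive in every alternative run, from 3.47 to 5.09 and from 5.59 to 6.60 log2 units, and with each library left out from 4.29 to 4.87 and from 6.21 to 6.86. *Slc30a1* in AGRP neurons was negative throughout, and reached −1.57 with ERCC scaling and −1.62 in the 1 µl spike-in set (1 against 1 library). *Mt3* in AGRP neurons stood at −1.29 within the 10 µl set. *Mtf1* in AGRP neurons stood at −0.82 with ERCC scaling. ERCC scaling rests on the labelled volumes, so its values depend on how well those labels hold. Spike-ins took 0.273% to 1.44% of counts in the 8 libraries with 1 µl and 8.17% to 18.4% in the 6 with 10 µl. In the 7 dosed by cell number (1 to 4.28 µl) they took 0.219% to 0.624%. This scaling is per tube and not per cell, so it also depends on the cells in each pool. Pools averaged 131 and 103 cells in fed and FD AGRP neurons, and 88.4 and 87.8 in fed and FD POMC neurons. ERCC scaling shifted the median of all genes by −0.93 in AGRP and −1.28 in POMC neurons. It turned the POMC log2 fold changes of *Mt2* to −1.10, *Mtf1* to −0.75 and *Slc30a1* to −1.11, and relative to that median they were 0.18, 0.53 and 0.17. In the same scaling *Slc30a1* in AGRP against POMC neurons of FD mice turned to 0.22. As a mean difference of log2 normalized CPM, *Mt1* in POMC neurons stood at −0.011 within the older cohort. No alternative brought a member under q 0.05 in POMC neurons.

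Higher zinc transport genes in AGRP neurons numbered 2 in all alternatives except ERCC scaling (0), which called 12 of all 16513 genes higher. The lower one, *Slc39a12*, was lost (0) with DESeq2, ERCC scaling, limma-voom, no count filter, each block and the cell covariate, and leaving out single libraries gave 0 to 1. With the 2 groups alone it was not tested. Directions of single POMC values turned for *Slc30a4* (−1.11), *Tfrc* (−0.41), *Fkbp5* (−0.21) and *Sgk1* (−1.18) with ERCC scaling, and for *Slc39a12* with the replicate block (0.075). With single libraries left out, POMC values ran from −1.13 to 0.22 for *Slc39a12*, −0.12 to 0.081 for *Gclm*, −0.25 to 0.16 for *Errfi1* and −0.070 to 1.10 for *Sgk1*, and the interaction of *Zbtb16* from −0.95 to 0.022. The cause was not tested.

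Same-numbered libraries are different mice and deviated with correlations of −0.19 to 0.087, so the numbers do not pair them. With the replicate block *Mt1* and *Mt2* in AGRP neurons were 4.82 and 6.57, in POMC neurons −1.20 and 0.85, and AGRP calls over all genes went from 1700 to 1488. Depth limits *Mt3* and fed AGRP *Mt1*, which rest on few counts.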
